A study of Arabidopsis thaliana with 18 samples.

Results

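Seeds of the Arabidopsis thaliana accessions C24 and Col-0 were compared at the latest of the harvest stages studied, 12-13 days (d) after flower opening, by setting the 3 arrays titled C24 against the 3 titled Col-0 at this stage, 6 of the 18 arrays in all. Both groups were wild accessions grown side by side without any treatment, Col-0 being the accession of the reference genome and C24 another natural accession. The other 12 arrays held seeds of the same accessions at 8-9 d and 10-11 d, with 3 arrays per accession and stage. Plants were grown in 2 experiments under 16 h of light, and each array measured RNA from 200 mg of seeds dissected out of 48 pooled siliques, the pods of this plant, with 8 siliques from each of 6 plants and plants of both experiments in every pool. Although the titles name biological replicates, the same plants may have given siliques to several pools of an accession, and a p-value then covers only how far these pools differ. Accession and stage were taken from the titles. The source name field names the other accession in every one of the 18 samples, while the genotype field and the titles name the same one.

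At this age the embryo of an Arabidopsis seed has formed and fills with storage protein and oil, which it later burns on germination. Fatty acids are built in the plastid by stepwise elongation on acyl carrier protein, exported, joined to glycerol and packed into oil bodies coated with oleosins. Late embryogenesis abundant (LEA) proteins accumulate as the seed prepares to dry, while the seed coat makes flavonoids and mucilage and the endosperm is used up by the growing embryo.

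Values are signals on a log2 scale, so a difference of 1 is a 2-fold difference, and every difference is C24 minus Col-0. In the limma fit, 5008 of 22746 probe sets (22%) were called at 12-13 d, meaning an adjusted p under 0.05, of which 2781 (12.2%) were higher and 2227 (9.79%) lower in C24. A difference of at least 2-fold was called higher for 190 probe sets (0.835%) and lower for 326 (1.43%). The 3 C24 and 3 Col-0 values did not overlap for 7765 probe sets (34.1%). Of all calls, 55.5% were higher in C24, but after scaling each array to the 12 measured reference genes, which moved all differences by -0.06, 1877 were higher and 2885 lower, so that 39.4% were higher. The scaling included reference genes that were themselves called at 12-13 d, namely GAPC2 (0.58), AT4G26410 (0.26) and AT2G32170 (-0.57). The median difference over all probe sets was 0.02. Calls were made for 5.84% of the 5687 probe sets with the lowest mean signal and for 33% of the 5687 with the highest.

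Arrays of C24 at 12-13 d correlated with Pearson's r of 0.9956 to 0.9960 across probe sets, arrays of Col-0 with 0.9928 to 0.9935, and arrays of different accessions with 0.978 to 0.982. An array has no read depth, so the number of arrays limits the precision. Control probe sets at the 3' and 5' ends of actin differed between the accessions: 3' minus 5' was -0.28 ± 0.17 in C24 and 0.93 ± 0.26 in Col-0 for the first set, and 0.06 ± 0.18 and 3.26 ± 0.54 for the second (SD, n = 3). For GAPDH it was 1.19 ± 0.12 in C24 and 1.77 ± 0.29 in Col-0 in the first set and 0.09 ± 0.12 and 0.36 ± 0.19 in the second, and for ubiquitin 0.77 ± 0.07 and 0.44 ± 0.10, then -0.23 ± 0.08 and -0.12 ± 0.19 (SD, n = 3). Their part in the differences given here was not tested. The probes were designed on the reference accession, and the part of C24 sequence differences under them was not tested either.

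The gene with the highest difference was AT4G29200, with signals of 9.90, 9.87 and 9.60 in the 3 C24 pools and 4.20, 4.89 and 5.30 in the 3 Col-0 pools. Every C24 pool lay far above every Col-0 pool, and the Col-0 pools were below the array median of 5.85. The difference was 5.00 (SE 0.19), or 31.95-fold, with a limma adjusted p of 5.53e-14. AT1G50290 had 10.13, 10.08 and 10.06 in C24 and 5.65, 5.55 and 5.25 in Col-0, a difference of 4.61 (SE 0.14, adjusted p = 3.85e-15). These 2 genes stood apart from Col-0 at each stage, AT4G29200 by 5.79 at 8-9 d and 5.48 at 10-11 d and AT1G50290 by 4.04 and 4.40. ATMND1, the next measured gene to AT4G29200 in gene order, acts in recombination between homologous chromosomes in meiosis. It was also higher in C24, by 1.34 (SE 0.13, adjusted p = 1.35e-07). For ATMND1 the difference was 0.16 at 8-9 d and 0.93 at 10-11 d.

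GSTU26, a glutathione transferase of the class that attaches glutathione to reactive compounds, had signals of 9.46, 9.41 and 9.59 in C24 and 6.75, 6.80 and 6.76 in Col-0. The pools of an accession lay within 0.2 of each other and the accessions 2.72 apart (SE 0.10, adjusted p = 2.92e-14). The terpene synthase family gene AT1G48800 had 9.15, 9.31 and 9.22 against 6.28, 6.07 and 6.44, a difference of 2.96 (SE 0.12). AT1G02300, which encodes a protease like cathepsin B, had 7.50, 7.86 and 7.61 against 4.59, 4.73 and 4.80, a difference of 2.95 (SE 0.15), which was smaller than its 4.13 at 8-9 d. That decrease was -1.17 (SE 0.22, limma adjusted p of the interaction 0.000992). AT1G63540, AT3G55470 and AT5G15360, to which the gene tables give no name, were higher in C24 by 2.45, 2.30 and 2.30. The Col-0 pools of AT5G15360 ranged from 4.93 to 6.47, all below the C24 pools at 7.84 to 8.00. TPI, a triosephosphate isomerase gene of glycolysis and the next measured gene to AT3G55470 in gene order, was higher by 0.26 (adjusted p = 0.0375). Leaving out any C24 pool, Col-0 pool 2 or Col-0 pool 3 ended this call, with an adjusted p of up to 0.126.

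The genes lowest in C24 were AT4G20480, with 5.26, 5.51 and 4.81 in C24 and 9.67, 9.59 and 9.58 in Col-0, and AT1G17860, with 5.05, 4.95 and 5.17 in C24 and 9.50, 9.19 and 9.56 in Col-0. In both, all C24 pools were below the array median and all Col-0 pools well above it. The differences were -4.42 (SE 0.20, adjusted p = 1.33e-12) and -4.36 (SE 0.19, adjusted p = 5.37e-13), or 21.4-fold and 20.5-fold. The germin-like gene AT3G04200 had 7.44, 7.59 and 7.64 in C24 against 11.91, 11.62 and 11.77 in Col-0, a difference of -4.20 (SE 0.17). AT1G23960 differed by -4.13 (SE 0.17) and AT2G41650 by -3.25 (SE 0.17), and at the earlier stages both were lower by -3.28 or more. AT2G41640, next to AT2G41650, was lower by -0.65 (SE 0.11, adjusted p = 0.000131).

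Pectin methylesterases remove methyl groups from cell wall pectin. A pair of genes of this family that lie next to each other, AT5G51490 and AT5G51500, was lower in C24. AT5G51490 had signals of 7.80, 8.02 and 8.00 in C24 and 11.60, 11.43 and 11.58 in Col-0, and AT5G51500 had 5.47, 4.79 and 4.91 in C24 and 9.12, 8.57 and 9.26 in Col-0. The groups were far apart in both genes, with differences of -3.59 (SE 0.11, adjusted p = 3.85e-15) and -3.93 (SE 0.17, adjusted p = 4.37e-13). The first gene was already lower at 8-9 d, by -2.14, whereas the second differed there by -0.37 (adjusted p = 0.145). The next measured gene, AT5G51470, was higher in C24 by 0.29 (adjusted p = 0.0255), a call lost without C24 pool 1 or 3 or Col-0 pool 3 (adjusted p up to 0.147). Of the 4 measured members of the list of named pectin methylesterases, PME61 was lower by -1.05 (SE 0.12, adjusted p = 7.44e-07), with 7.56, 7.63 and 7.72 in C24 and 8.99, 8.60 and 8.46 in Col-0. PMEPCRF was higher by 0.28 (adjusted p = 0.036), which was lost under the reference scaling and without C24 pool 1 or 3 or Col-0 pool 3 (adjusted p up to 0.178).

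A group of 3 adjacent listed genes was lower in C24. AT5G38180 belongs to the family of lipid transfer proteins and 2S albumins and had 4.89, 4.68 and 4.39 in C24 and 8.61, 8.47 and 9.02 in Col-0, a difference of -4.05 (SE 0.54, adjusted p = 1.01e-05). Its neighbours AT5G38170 and AT5G38195 differed by -0.43 (SE 0.08) and -0.85 (SE 0.13). Their pools did not overlap, which was required for naming a neighbour. Over the genome, 13286 loci were measured, of which 272 were called at least 2-fold apart. In 5878 pairs of adjacent protein-coding genes both were measured. In 7 pairs both genes were called at least 2-fold apart, 6 of them in the same direction. Besides AT5G51490 with AT5G51500, these were AT1G22330 with UGT85A7 (1.01 and 1.56), AT3G19515 with AT3G19520 (-2.16 and -2.95), AT2G23110 with AT2G23120, and 2 pairs of the plastid genome, all described after their values were seen. The pair in opposite directions was AT2G19310 with AT2G19320.

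**Figure D1:**
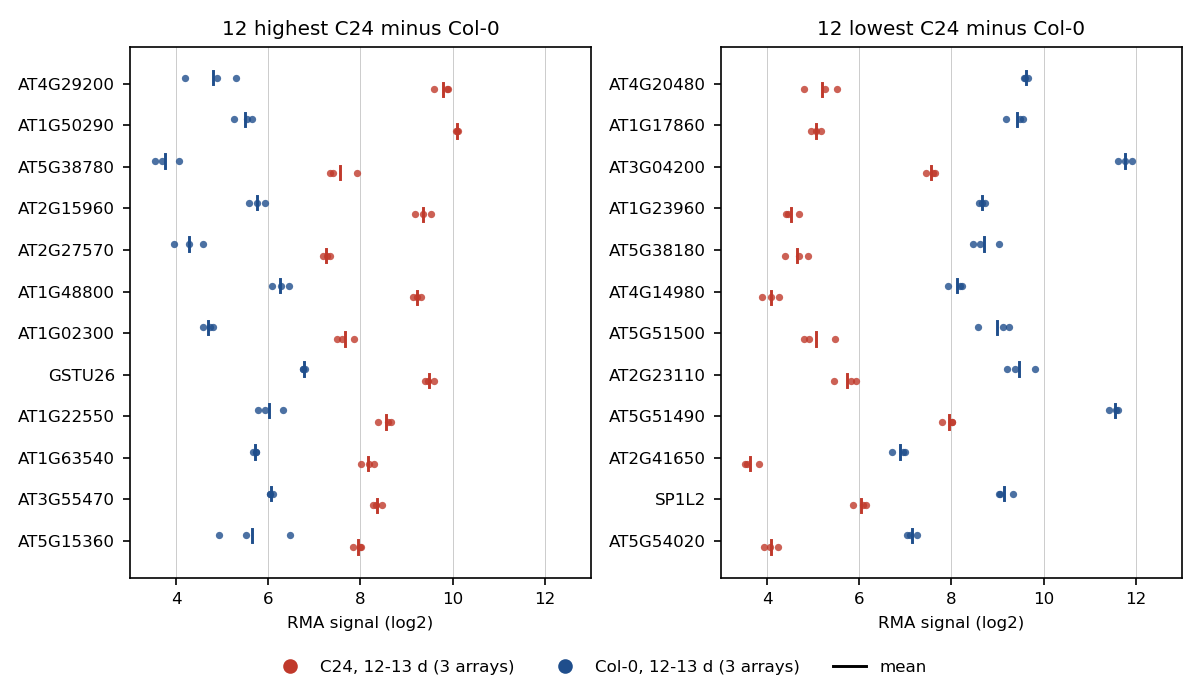
Log2 signals at 12-13 d of the 12 genes with the highest and the 12 with the lowest difference, with a point for each of the 3 C24 and 3 Col-0 arrays and a bar for the mean of each accession. In each gene the points of the accessions lie apart, from 5.00 higher in C24 for AT4G29200 to -4.42 for AT4G20480.

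Many of the large differences were present earlier in development. Of the 190 probe sets at least 2-fold higher at 12-13 d, 119 (62.6%) were called higher at 8-9 d and 162 (85.3%) at 10-11 d. Of the 326 lower, 199 (61%) were called lower at 8-9 d and 271 (83.1%) at 10-11 d. Over calls of any size, 1051 probe sets were higher at both 12-13 d and 8-9 d, which is 37.8% of the former and 39.4% of the latter, and 833 were lower at both, 37.4% and 47.5%. Between 12-13 d and 10-11 d, 1048 higher calls (37.7% and 46.4%) and 998 lower calls (44.8% and 54.9%) were shared. At 8-9 d 4418 probe sets (19.4%) were called, 2666 (11.7%) higher and 1752 (7.7%) lower, and at 10-11 d 4074 (17.9%), 2257 (9.92%) and 1817 (7.99%).

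Whether the accession difference itself changed between stages was tested with interaction terms, which for both earlier stages share the 6 arrays of 12-13 d. Against 8-9 d, 2080 probe sets (9.14%) were called, 900 upward (3.96%) and 1180 downward (5.19%). Against 10-11 d, 1346 (5.92%) were called, 591 upward (2.6%) and 755 downward (3.32%). Scaled to the reference genes, upward calls fell from 43.3% to 22.7% against 8-9 d (550 upward and 1878 downward) and from 43.9% to 23.5% against 10-11 d (361 and 1175). Against 8-9 d, centring on array medians gave 1121 upward and 1013 downward calls, and against 10-11 d, leaving out dim probe sets gave 664 and 638, so the majority turned in these 2 settings. The total against 10-11 d was 881, 854 and 754 without C24 10-11 d pool 2, Col-0 10-11 d pool 1 and Col-0 10-11 d pool 2. A difference counted as larger at 12-13 d than at both earlier stages where both interactions were called in its own direction. Sizes were not compared, so probe sets that turned over could be counted, such as BAN with 0.74 after -0.80 at 8-9 d. In this sense the difference was larger than at both earlier stages for 142 probe sets higher in C24 (0.624%) and for 280 lower (1.23%). Under the reference scaling these became 83 and 448. Without Col-0 10-11 d pool 2 the first count was 93.

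The gene of this kind with the highest difference was AT5G38780, a relative of the jasmonic acid methyltransferase JMT. It had 7.93, 7.34 and 7.41 in C24 and 3.69, 4.05 and 3.53 in Col-0 at 12-13 d, a difference of 3.80 (SE 0.19, adjusted p = 5.61e-12). The Col-0 mean stayed between 3.72 and 3.77 at all stages, near the floor of the scale, while the C24 mean was 4.14 ± 0.24 at 8-9 d, 5.84 ± 0.47 at 10-11 d and 7.56 ± 0.32 at 12-13 d (SD, n = 3). AT2G15960 took a like course in C24, from 5.95 to 8.43 and 9.36, against 5.29, 5.92 and 5.76 in Col-0. Its difference of 3.60 at 12-13 d was larger by 2.94 (SE 0.20, adjusted p = 2.56e-09) than at 8-9 d. AT2G27570 reached 7.26 in C24 and 4.27 in Col-0 at 12-13 d, a difference of 2.99 (SE 0.13), after 0.15 at 8-9 d and 1.15 at 10-11 d.

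IRX15, needed for xylan of the secondary cell wall, was level in the accessions at 8-9 d, with means of 4.29 in C24 and 4.36 in Col-0. At 12-13 d it had 6.71, 6.38 and 6.46 in C24 and 4.02, 4.48 and 4.30 in Col-0, a difference of 2.25 (SE 0.14, adjusted p = 1.96e-10). All C24 pools were above the array median and all Col-0 pools below it. AT1G22550 differed by -0.06 at 8-9 d, 1.63 at 10-11 d and 2.54 at 12-13 d. AT3G48420 had means of 7.52, 6.84 and 7.04 in C24 and 6.49, 5.84 and 5.41 in Col-0 over the stages, and its difference of 1.63 (SE 0.12) at 12-13 d followed 1.03 and 1.00.

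In the other direction, SP1L2, of the SPIRAL1-like family of microtubule-associated proteins, had 6.14, 6.08 and 5.87 in C24 and 9.03, 9.06 and 9.33 in Col-0 at 12-13 d. The difference was -3.11 (SE 0.14, adjusted p = 5.54e-13), after -0.72 at 8-9 d and -1.49 at 10-11 d. The C24 mean lay between 5.84 and 6.12 at all stages, while the Col-0 mean went from 6.56 to 7.62 and 9.14. AT4G14980 and AT5G54020 showed the same shape, with C24 means of 3.94 to 4.26 and 4.09 to 4.21 at all stages. Their Col-0 means were 4.67 and 4.24 at 8-9 d and 8.11 and 7.14 at 12-13 d, which left differences of -4.03 (SE 0.13) and -3.05 (SE 0.11) at 12-13 d. For AT5G51500 the Col-0 mean was 4.88 at 8-9 d and 8.98 at 12-13 d, and the C24 mean 4.51 and 5.06. For AT1G17860 the difference was -3.10 at 8-9 d and -3.32 at 10-11 d before it reached -4.36.

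**Figure D2:**
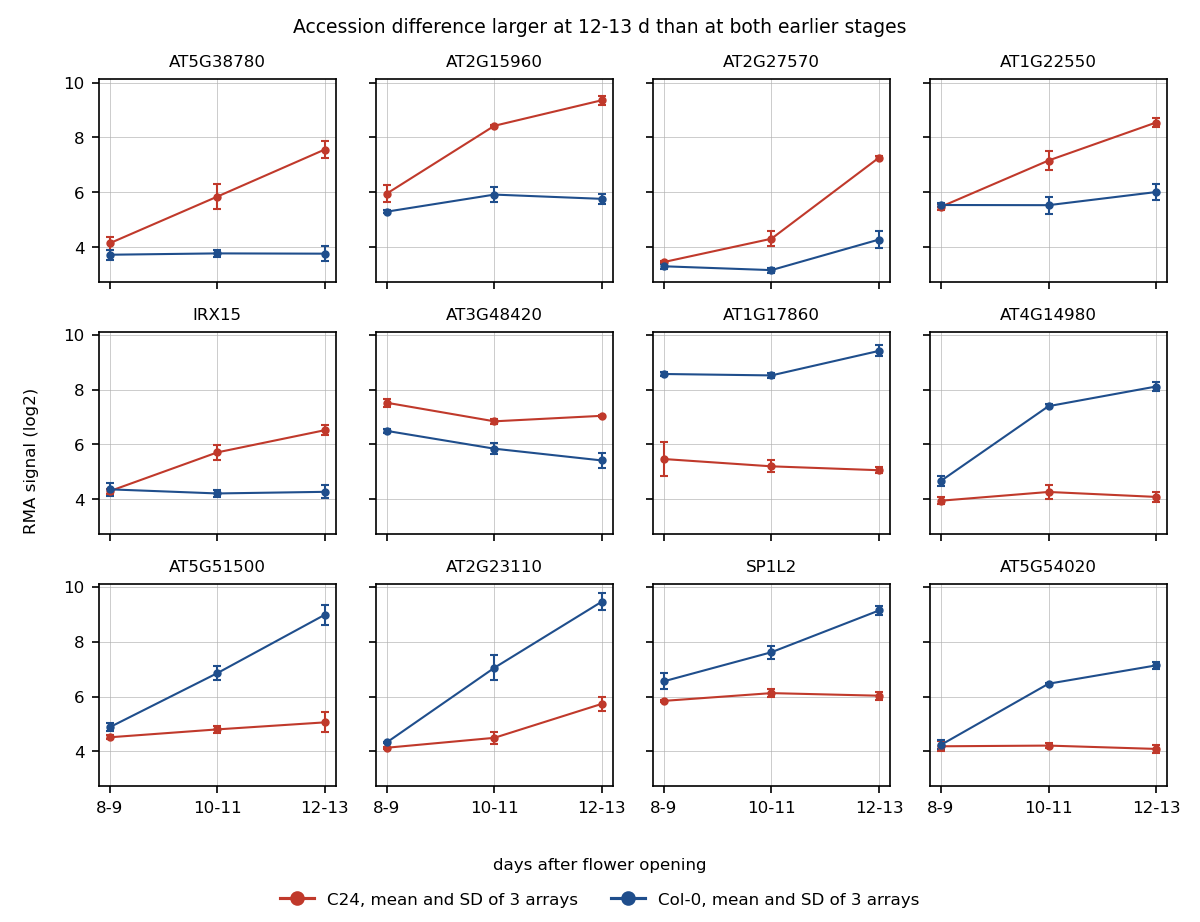
Mean log2 signal of C24 and Col-0 at 8-9, 10-11 and 12-13 d, with bars for the SD of 3 arrays, for the 12 named genes whose difference at 12-13 d was larger than at both earlier stages. In AT5G38780 the C24 line climbs to 7.56 over a flat Col-0 line, and in SP1L2 the Col-0 line climbs to 9.14 over a flat C24 line.

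Differences that turned over between 8-9 d and 12-13 d, with a call at both stages and in the interaction, were found for 54 probe sets that ended higher in C24 (0.237%) and for 105 that ended lower (0.462%). AT2G43535 went from 1.76 at 8-9 d to 0.80 at 10-11 d and -1.78 at 12-13 d, where it had 8.40, 8.49 and 8.53 in C24 and 10.38, 10.02 and 10.35 in Col-0. The interaction was -3.54 (SE 0.27, limma adjusted p = 1.51e-08). ATL8, of a family of RING-type ubiquitin ligases, had 8.23, 8.22 and 8.24 in C24 and 9.83, 9.82 and 9.81 in Col-0, a difference of -1.59 (SE 0.11) after 0.82 at 8-9 d. Pools of the same accession were nearly identical in this gene. AT5G47330 went from 0.32 to -1.62 between these stages.

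AT2G19310, which is on the list of small heat shock proteins, and its neighbour AT2G19320 turned over in opposite directions. AT2G19310 had 8.06, 8.11 and 8.16 in C24 and 6.78, 6.79 and 6.85 in Col-0 at 12-13 d, a difference of 1.31 (SE 0.11, adjusted p = 1.32e-08), after -1.19 at 8-9 d. AT2G19320 had 6.62, 7.04 and 6.88 in C24 and 8.40, 8.10 and 8.92 in Col-0, a difference of -1.62 (SE 0.17, adjusted p = 5.07e-07), after 1.03 at 8-9 d. AT1G56100 had means of 10.39 in Col-0 and 9.63 in C24 at 8-9 d, and 4.97 and 6.39 at 12-13 d, so its difference went from -0.76 to 1.42. AT1G34580 went from -0.49 to 1.05. AT5G50315, a pseudogene in the RefSeq annotation, went from -0.34 to 0.88.

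**Figure D3:**
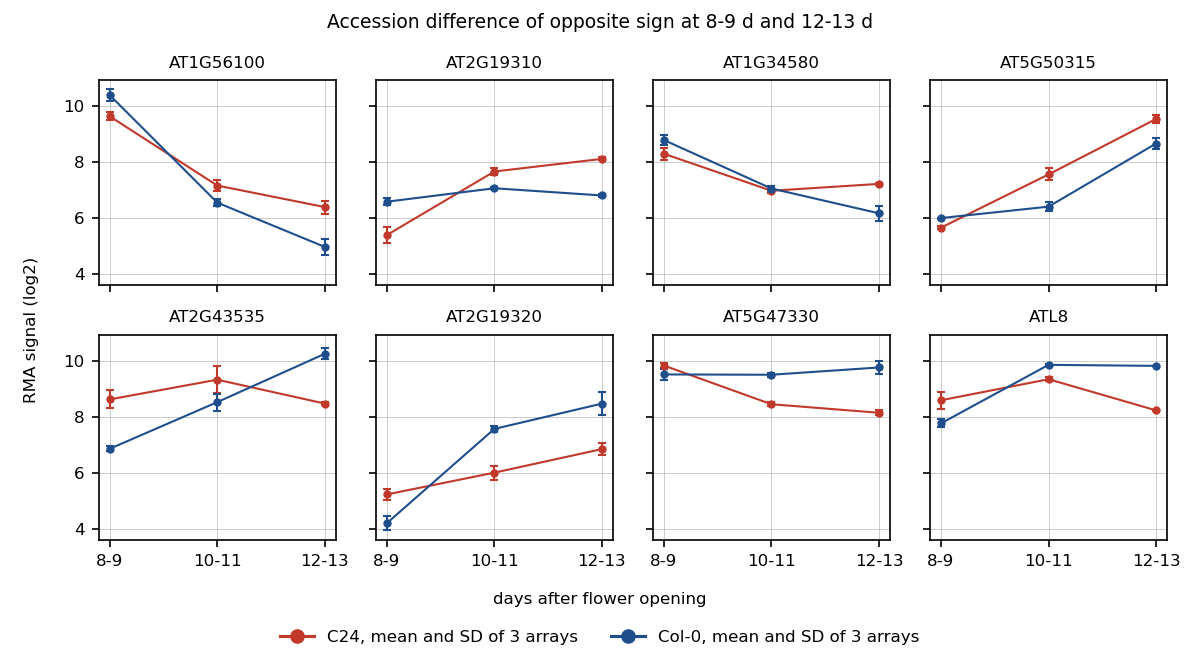
Mean log2 signal of C24 and Col-0 at 8-9, 10-11 and 12-13 d, with bars for the SD of 3 arrays, for the 8 named genes whose accession difference had opposite signs at 8-9 d and 12-13 d. The lines cross in each panel, for AT2G43535 from 1.76 higher in C24 to -1.78.

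Gene lists covered 22 processes and families with at least 1 measured member. Statements on a list concern its measured members, and counts are to be read against 12.2% of all probe sets called higher and 9.79% called lower. Many lists were measured only in small part, such as 5 of 35 genes for sugars and starch and 7 of 41 for DNA replication and mitosis. Several calls near the threshold were also lost in a fit of the 12-13 d arrays alone, which has fewer degrees of freedom.

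For LEA proteins 37 of 53 members were measured, of which 2 were higher and 9 lower, with a median difference of -0.04 against 0.02 over all probe sets. AT2G23110 led with 5.93, 5.45 and 5.82 in C24 and 9.37, 9.20 and 9.82 in Col-0, groups that lay -3.73 apart (SE 0.18, adjusted p = 2.38e-12). At 8-9 d it was near the floor in both accessions, at 4.13 in C24 and 4.32 in Col-0. Its neighbour AT2G23120, also a LEA gene, had 9.98, 9.90 and 10.20 in C24 and 11.22, 11.39 and 11.73 in Col-0, a difference of -1.42 (SE 0.17), and it was lower by -1.98 already at 8-9 d. The list members COR47 and LTI30, singled out after their values were seen, were lower by -1.37 (adjusted p = 6.92e-08) and -1.28 (adjusted p = 1.08e-05). AT4G39130 was higher by 0.65 (SE 0.14, adjusted p = 0.0018) and AT5G60530 by 0.32 (adjusted p = 0.025). The call of AT5G60530 was lost without C24 pool 2 or 3 or Col-0 pool 3, and under the reference scaling, with an adjusted p of up to 0.118. Members with the highest signals did not pass the test, such as AT3G02480 with 13.05 in C24 and 13.12 in Col-0.

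None of 5 measured seed storage protein genes, out of 13 listed, was called by limma, and 1 had an unadjusted p under 0.05. Apart from AT2G18540, at 5.60 in C24 and 5.53 in Col-0, their means were 12.78 or more in both accessions, near the top of the scale, so that defining genes of seed tissue were present on all arrays. AT4G36700 had 13.11, 13.00 and 13.09 in C24 and 12.75, 12.79 and 12.80 in Col-0, a difference of 0.28 with an adjusted p of 0.053. The pools did not overlap, and the adjusted p was 0.0189 with a trended, robust variance and 0.0361 without dim probe sets. PAP85, a vicilin-like storage globulin, had 13.45 in C24 and 13.37 in Col-0 (adjusted p = 0.701).

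Of 12 measured genes of plastid fatty acid synthesis, out of 41 listed, 6 were higher, 0 lower and 6 not called, with a median of 0.29. The stearoyl-ACP desaturase family gene AT5G16230, of the enzymes that put the first double bond into a fatty acid, had 10.86, 10.84 and 10.95 in C24 and 9.72, 9.61 and 9.75 in Col-0. All pools of an accession were within 0.2 of each other, and the difference was 1.19 (SE 0.09, adjusted p = 3.17e-09), against 0.34 at 8-9 d and 0.83 at 10-11 d. AT4G16155, a plastid dihydrolipoamide dehydrogenase gene, was higher by 0.72 (SE 0.13, adjusted p = 0.000317). FaTA, a thioesterase that releases unsaturated fatty acids, was higher by 0.35 (adjusted p = 0.0109), while FATB, the thioesterase of saturated ones, differed by -0.20 (adjusted p = 0.165). Leaving out 1 array gave 4 to 7 higher and 0 lower.

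Of 11 measured genes of oil bodies and storage lipid, out of 34 listed, 4 were higher and 0 lower, with a median of 0.17. OLEO3, an oleosin, had 13.16, 13.16 and 13.11 in C24 and 12.60, 12.70 and 12.71 in Col-0, a difference of 0.47 (SE 0.07, adjusted p = 6.94e-05). AT5G16460 was higher by 0.56 (SE 0.14, adjusted p = 0.00472), AT3G18570 by 0.29 and AT3G05500 by 0.26. The last 2 calls were lost without C24 pool 1 or 3 or Col-0 pool 1 or 3 and under the reference scaling, which left 2 higher, and AT3G05500 also without C24 pool 2, with adjusted p-values of up to 0.163 for AT3G18570 and 0.113 for AT3G05500. SDP1, a lipase that breaks down storage oil, differed by -0.24 (adjusted p = 0.148).

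Of the regulators of seed maturation only 4 of 23 were measured. BZIP53, a transcription factor that acts on seed maturation genes, was higher by 0.35 (SE 0.09, adjusted p = 0.00773), and without C24 pool 3 its adjusted p was 0.052. EEL, a related factor, differed by 0.26 (adjusted p = 0.0858).

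**Figure D4:**
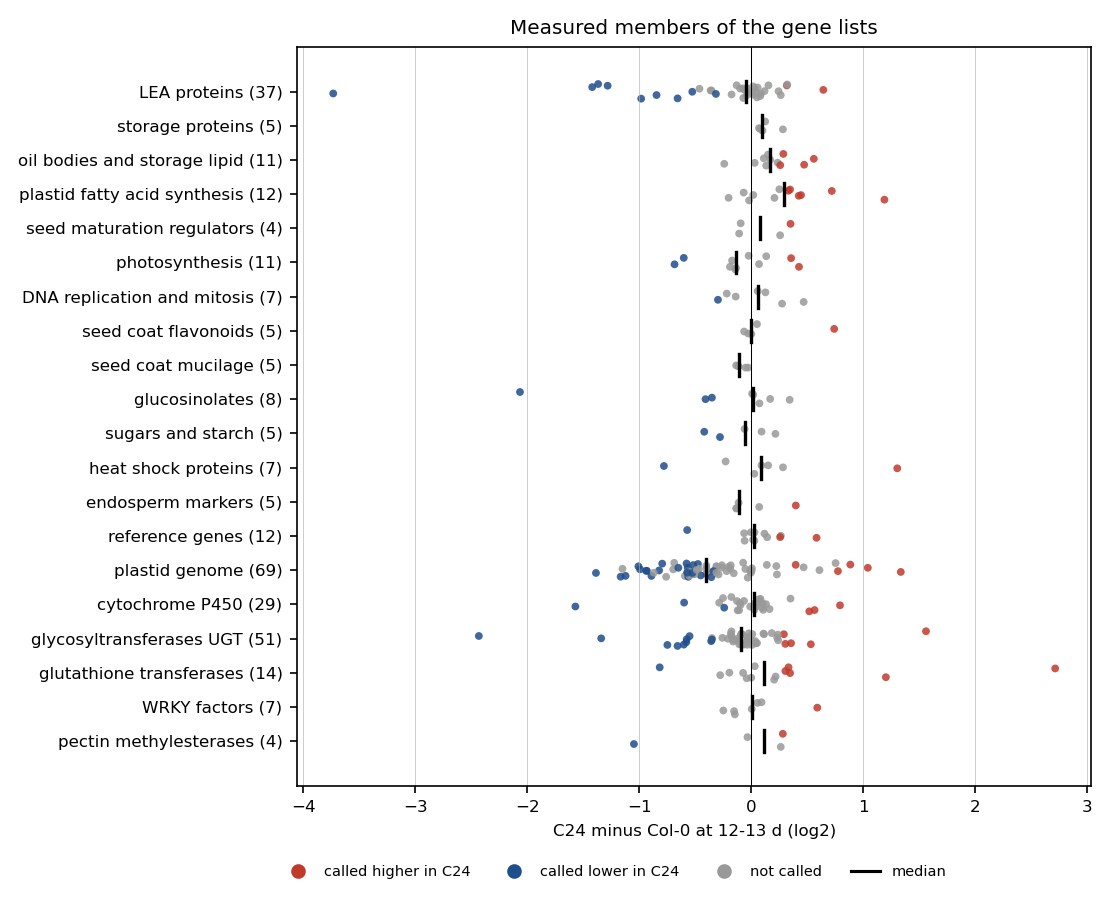
Difference at 12-13 d in log2 units (C24 minus Col-0) of each measured member of the 20 lists with at least 4 measured members, whose number is in brackets, coloured by the limma call, with a bar for the list's median. Members of fatty acid synthesis lie mostly to the right, with a median of 0.29, and those of the plastid genome mostly to the left, with a median of -0.40.

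The plastid genome encodes part of the photosynthetic complexes and of the plastid's own transcription and translation machinery. Of 69 measured transcripts out of 85 listed genes, 5 were higher, 22 lower and 42 not called, with a median of -0.40. The mean over the 69 was 7.97, 8.11 and 8.07 in the 3 C24 pools and 8.08, 8.52 and 8.52 in the 3 Col-0 pools, so Col-0 pool 1 was level with C24 and the groups overlapped. Without Col-0 pool 1, 36 were lower, without Col-0 pool 3, 13 were lower and 2 higher, and without C24 pool 1, 14 were lower and 3 higher. The RNA was taken from whole seeds, so fewer cells of a type and less RNA per cell cannot be told apart.

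The 4 lowest called differences were those of psbJ, psbF, petA and psbE, subunits of photosystem II and, for petA, of the cytochrome b6f complex. The genes psbE, psbF, psbL and psbJ, which are transcribed together as an operon, all were lower. psbJ had 8.79, 8.67 and 8.47 in C24 and 10.43, 9.68 and 9.97 in Col-0, a difference of -1.39 (SE 0.14, adjusted p = 1.85e-07). psbF, of cytochrome b559, had 9.05, 8.90 and 9.09 in C24 and 10.48, 10.01 and 10.05 in Col-0, a difference of -1.16 (SE 0.13). In both genes Col-0 pool 1, whose plastid mean was the lowest in Col-0, held the highest signal. psbE and psbL were lower by -1.01 (SE 0.16) and -0.93 (SE 0.14). petA, which encodes cytochrome f and lies next to psbJ, was lower by -1.12 (SE 0.19, adjusted p = 0.000165). The differences of the operon were -0.67, -0.81, -0.70 and -0.59 at 8-9 d for psbJ, psbF, psbE and psbL.

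Apart from these, rbcL, the large subunit of the carbon-fixing enzyme Rubisco, was lower by -0.65 (adjusted p = 0.00993) and rpoA, a subunit of the plastid RNA polymerase, by -0.89 (adjusted p = 5.29e-07). Of 15 ribosomal protein transcripts 5 were lower and 0 higher, with a median of -0.51, and of 10 ndh transcripts 2 were lower and 0 higher, with a median of -0.40. These classes were formed from gene names after the values were seen.

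A few plastid transcripts were higher in C24. psaJ, of photosystem I, had 9.36, 9.49 and 9.55 in C24 and 8.34, 8.70 and 8.24 in Col-0, a difference of 1.04 (SE 0.21, adjusted p = 0.00113). clpP, a subunit of the plastid protease, had 11.29, 11.14 and 11.08 in C24 and 10.10, 10.37 and 10.39 in Col-0, a difference of 0.89 (SE 0.11), and it was higher at 8-9 d by 1.02 as well. psbA, the D1 protein of photosystem II, had 8.67, 8.99 and 8.51 in C24 and 7.004, 8.16 and 7.004 in Col-0, with Col-0 pool 2 far above the other two. Its difference of 1.34 (SE 0.40, adjusted p = 0.0192) lost its call without C24 pool 2, Col-0 pool 1 or Col-0 pool 3, with an adjusted p of up to 0.0892. psbI (0.78) and petB (0.40) were called at an adjusted p of 0.0211 each, and their pools overlapped. These 2 calls were lost without C24 pool 1 or Col-0 pool 3, psbI also without C24 pool 3 or Col-0 pool 2 and petB also without C24 pool 2, with an adjusted p of up to 0.128 and 0.165.

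**Figure D5:**
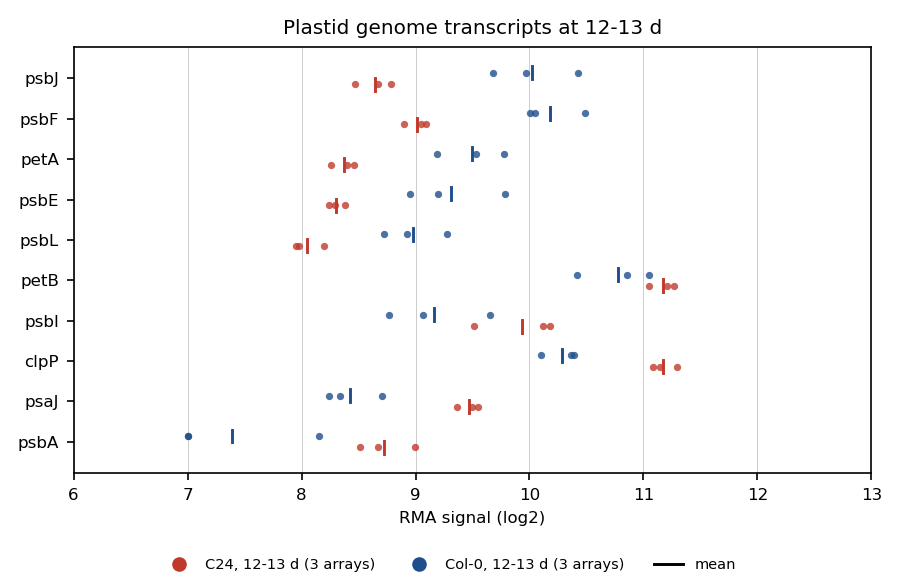
Log2 signals at 12-13 d of 10 transcripts of the plastid genome, with a point for each of the 3 C24 and 3 Col-0 arrays and a bar for the mean of each accession. The 5 upper genes are lower in C24, psbJ by -1.39, and the 5 lower ones are higher, with overlapping points for petB and psbI.

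Nuclear genes of photosynthesis were divided, with 2 higher and 2 lower of 11 measured, out of 58 listed, and a median of -0.14. RCA, the activase of Rubisco, had 8.97, 8.73 and 8.86 in C24 and 9.74, 9.43 and 9.44 in Col-0, a difference of -0.68 (SE 0.15, adjusted p = 0.0019). LHCB4.2 and LHCB4.3 encode related forms of a minor antenna protein of photosystem II, and the first was lower by -0.60 while the second was higher by 0.36. SBPASE, of the Calvin cycle, was higher by 0.43 (adjusted p = 0.00698). RCA differed by 0.11 at 8-9 d, and the change to -0.68 was called (interaction -0.80, SE 0.21, adjusted p = 0.0191).

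Among the seed coat lists, 1 of 5 measured flavonoid genes was called. BAN, the anthocyanidin reductase of condensed tannin synthesis, had 8.37, 7.97 and 8.05 in C24 and 7.81, 6.95 and 7.41 in Col-0, higher by 0.74 (SE 0.17, adjusted p = 0.00368), after -0.80 at 8-9 d. Each C24 pool was above each Col-0 pool. DFR, an earlier enzyme of the same pathway, had 7.92 in both accessions. Of 5 mucilage genes limma called 0, with 0 at an unadjusted p under 0.05, and AT2G22900, which had the smallest p, differed by -0.12 (adjusted p = 0.495).

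Glucosinolates are sulphur compounds of plant defence that seeds import and store. Of 8 measured genes, out of 49 listed, 0 were higher and 3 lower. AT2G25450 had 8.20, 8.29 and 7.86 in C24 and 10.33, 10.10 and 10.12 in Col-0, a difference of -2.06 (SE 0.13, adjusted p = 1.6e-10), and the groups were well apart. The transporter gene GTR1 was lower by -0.41 (SE 0.11, adjusted p = 0.00847). UGT74B1, a glucosyltransferase of glucosinolate synthesis, was lower by -0.35 (adjusted p = 0.0308), with overlapping pools, and its call was lost without C24 pool 1 or 2 or Col-0 pool 1 or 3 (adjusted p up to 0.149).

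Of 5 genes of sugar and starch metabolism, APL3, a subunit of the enzyme that makes ADP-glucose for starch, was lower by -0.42 (SE 0.09, adjusted p = 0.00227), from signals under 4.9 on all 6 arrays. SWEET11, a sucrose transporter, had 12.49, 12.37 and 12.39 in C24 and 12.81, 12.62 and 12.65 in Col-0, lower by -0.28 (adjusted p = 0.0212). This call was lost without C24 pool 2 or 3 or Col-0 pool 1 (adjusted p up to 0.094). Of 7 small heat shock proteins, AT5G37670 was lower by -0.78 (SE 0.10, adjusted p = 1.11e-05), after 0.32 at 8-9 d, and AT2G19310 was the gene that was higher. Without C24 pool 1, 2 were higher.

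Of 7 measured genes of DNA replication and mitosis, AUR2, an Aurora kinase of dividing cells, was lower by -0.30 (adjusted p = 0.0173), and this was lost without C24 pool 2 or 3 or Col-0 pool 1 (adjusted p up to 0.0823). TOPII, a topoisomerase, and HTR12, the centromeric histone, had differences of 0.47 (adjusted p = 0.0698) and 0.28 (adjusted p = 0.0795). Without Col-0 pool 2, 2 members were higher, and without C24 pool 2, 1.

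Among 51 measured UGT glycosyltransferases, which attach sugars to small molecules, 5 were higher and 10 lower. UGT87A2 had 4.74, 5.00 and 5.08 in C24 and 7.51, 7.17 and 7.44 in Col-0, a difference of -2.43 (SE 0.14, adjusted p = 7.22e-11), after -0.46 at 8-9 d. All C24 pools were below the array median and all Col-0 pools above it. UGT71B1 was lower by -1.34 (SE 0.12). UGT85A7 had 7.90, 8.15 and 7.95 in C24 and 6.41, 6.47 and 6.44 in Col-0, higher by 1.56 (SE 0.11, adjusted p = 7.99e-10) after 0.03 at 8-9 d. UGT74F1, which glucosylates salicylic acid, was higher by 0.53 (SE 0.10). The other 3 higher calls, UGT72B3 (0.36), UGT71C4 (0.31) and UGT76D1 (0.29), were each lost under the reference scaling, which left 2 higher. UGT72B3 was lost without C24 pool 1 or Col-0 pool 3, UGT71C4 without Col-0 pool 2, and UGT76D1 without C24 pool 1 or 3 or Col-0 pool 2 or 3, with adjusted p-values of up to 0.287, 0.065 and 0.178. Leaving out any of C24 pool 1, Col-0 pool 2 and Col-0 pool 3 gave 3 higher.

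Among 14 glutathione transferases 5 were higher and 1 lower, with a median of 0.12. After GSTU26, GSTU27 had 6.73, 6.39 and 6.75 in C24 and 5.15, 5.43 and 5.69 in Col-0, higher by 1.20 (SE 0.13, adjusted p = 3.63e-07). ATGSTF13 was lower by -0.82 (SE 0.13, adjusted p = 0.000103). The smaller calls of GSTU20 (0.35), GSTL3 (0.33) and GSTU21 (0.31) were all lost without Col-0 pool 2, which left 2 higher, and without C24 pool 2, 3 were higher, GSTU20 and GSTU21 having lost their calls. GSTU21 was also lost without C24 pool 1 or 3 or Col-0 pool 3, and the highest adjusted p-values of the 3 genes were 0.077, 0.0655 and 0.131. Without C24 pool 2 or Col-0 pool 3, 2 members were lower.

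The cytochrome P450 list, taken by gene symbol, had 3 higher and 3 lower of 29 measured probe sets, out of 250 listed genes. CYP78A9, a P450 that promotes growth of fruits and seeds, had 11.13, 11.06 and 11.15 in C24 and 12.75, 12.65 and 12.64 in Col-0, a difference of -1.57 (SE 0.14, adjusted p = 4.66e-08). At 8-9 d it had been higher in C24 by 0.86, and the interaction was -2.43 (SE 0.20, adjusted p = 5.66e-08). CYP71B26 was lower by -0.60, and CYP71B34 and CYP71B35 were higher by 0.57 and 0.52. The symbol rule also took in genes that encode cyclophilins and not P450 enzymes, among them SQN and CYP71. SQN was higher by 0.79 (SE 0.12) in its brighter probe set. Its other probe set, near the floor at 3.09 in C24 and 3.22 in Col-0, differed by -0.13 (adjusted p = 0.459). CYP71 was lower by -0.24 (adjusted p = 0.0463), a call lost without any array but Col-0 pool 2 (adjusted p up to 0.178).

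WRKY22, a factor of defence signalling, was the 1 called of 7 measured WRKY genes, out of 72 listed. It was higher by 0.59 (SE 0.11, adjusted p = 0.000382), and without Col-0 pool 2, 1 WRKY gene was lower. The single measured NAC gene of 103 listed, NAC014, differed by -0.28 (adjusted p = 0.147).

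Markers of other tissues were looked at beside these results. Of 5 measured genes on the endosperm list, AT5G01075 was higher by 0.40 (adjusted p = 0.0184), lost under the reference scaling and without C24 pool 2 or Col-0 pool 3 (adjusted p up to 0.114), and its place on this list is doubtful, since it was entered without a stated role. AGL62, AGL80, AGL61 and IKU2, which act in the endosperm or the central cell, differed by -0.13, -0.11, 0.07 and -0.13 with adjusted p-values of 0.372 or more. AGL62 (3.32 in C24 and 3.45 in Col-0), IKU2 (4.29 and 4.43) and AGL61 (5.31 and 5.24) lay below the array median of 5.85. AGL80 lay above it (7.52 and 7.63). Such low signals limit what these genes can show on endosperm content. The mean of the list was 6.07 to 6.10 in C24 and 5.92 to 6.16 in Col-0, so the groups overlapped. The silique wall was represented by ADPG1, a polygalacturonase of pod opening, with -0.39 (adjusted p = 0.256), and ALC, a factor of the same tissue, with 0.05 (adjusted p = 0.869). ADPG1 had 6.76, 6.54 and 6.49 in C24 and 7.24, 6.43 and 7.30 in Col-0, and without Col-0 pool 2 its adjusted p was 0.0372. The part of tissue composition in the differences was not tested.

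Of the 12 measured reference genes 9 were not called, among them PEX4, a ubiquitin-conjugating enzyme, with -0.06. GAPC2, of glycolysis, had 12.19, 12.22 and 12.17 in C24 and 11.73, 11.51 and 11.57 in Col-0, higher by 0.58 (SE 0.09, adjusted p = 7.53e-05). AT2G32170 was lower by -0.57 (SE 0.12, adjusted p = 0.00132). AT4G26410 was higher by 0.26 (adjusted p = 0.0202), lost without C24 pool 1 or Col-0 pool 3 and under the reference scaling (adjusted p up to 0.0866).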

How the data were processed

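The authors deposited log2 signals per probe set, computed with RMA per the submitters' processing notes without a version, a method that corrects background, normalizes quantiles over arrays and compresses low signals. Of 22810 probe sets, 64 controls were left out and 22746 tested. The platform's gene table gave 1 gene for 13513, several for 503 and did not list 8730, which stay unnamed. RefSeq TAIR10.1 gave a locus to 13436 and was used for names and gene order only.

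The 6 groups were modelled together over 18 arrays, so that all share 1 estimate of the spread (limma 3.58.1 with R 4.3.3). The fit had 12 residual degrees of freedom, to which eBayes added 8.331. Adjusted p-values follow Benjamini and Hochberg over 22746 probe sets, with calls under 0.05. Tested on simulated data for the 12-13 d comparison over 22746 probe sets, this recovered 97 of 100 log2 changes of 1 and 65 of 100 of 0.5, with 10 false calls. Only 200 probe sets were changed there, with independent noise, whereas 5008 were called in the data. These counts therefore do not give the number of false or missed calls in the data.

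The text names the 12 highest and 12 lowest called differences of probe sets with 1 gene and no overlap. Called neighbours of these in the order of measured genes are named too, with unmeasured genes passed over. Also named are 6 each way larger than at both earlier stages and 4 each way turned over since 8-9 d. Per list, up to 2 called members at either end (or that of smallest p) are named. Others were named after their values were seen. Members, lists and rule were chosen with earlier results of these data known, and the plastid list was taken by chromosome once the gene table had been read. Another 7 lists (abscisic acid and gibberellin, suberin, salicylic acid defence, mitochondrial genome, MYB factors, NLR proteins, class III peroxidases) held 0 measured genes. A further gene family list is not reported here. Alternatives were the compared stages alone, a replicate block, repeated quantile normalization, centring on array medians, scaling to reference genes, dropping probe sets with a mean under 6, trended and robust variances, and leaving out each array.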

Additional observations from a re-analysis of the deposited data

Results flagged for a closer look

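An accession difference at 12-13 d that differed from the one at an earlier stage, by the limma interaction term at an adjusted p under 0.05, was found for 2080 probe sets against 8-9 d and for 1346 against 10-11 d. The values given are these interactions in log2 units, the difference at 12-13 d minus that at the earlier stage.

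Among the genes with extreme differences, the interaction against 8-9 d was 3.38 for AT5G38780, 2.94 for AT2G15960, 2.83 for AT2G27570, 2.60 for AT1G22550, 1.30 for AT1G48800, 0.95 for GSTU26 and 0.91 for AT3G55470. It was -1.17 for AT1G02300, -1.03 for AT4G20480, -1.25 for AT1G17860, -1.84 for AT3G04200 and -1.46 for AT5G51490. It was -3.31 for AT4G14980, -3.56 for AT5G51500, -3.54 for AT2G23110, -2.40 for SP1L2 and -3.00 for AT5G54020. IRX15 and AT3G48420 had 2.32 and 0.60.

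Against 10-11 d it was 1.73 for AT5G38780, 1.09 for AT2G15960, 1.84 for AT2G27570, 0.91 for AT1G22550, 0.75 for IRX15 and 0.63 for AT3G48420. In the other direction it was -1.04 for AT1G17860, -0.90 for AT4G14980, -1.88 for AT5G51500, -1.18 for AT2G23110, -1.62 for SP1L2 and -0.79 for AT5G54020. For GSTU26 it was -0.49, so its difference was larger than at 8-9 d and smaller than at 10-11 d.

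For genes whose difference turned over since 8-9 d, the interaction was 2.18 for AT1G56100, 2.50 for AT2G19310, 1.54 for AT1G34580 and 1.22 for AT5G50315. It was -3.54 for AT2G43535, -2.65 for AT2G19320, -1.94 for AT5G47330 and -2.41 for ATL8. Against 10-11 d it was 0.81 for AT1G56100, 0.71 for AT2G19310, 1.13 for AT1G34580, -2.58 for AT2G43535, -0.56 for AT5G47330 and -1.07 for ATL8.

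Of the list members and neighbours, those with a positive interaction against 8-9 d were AT4G39130 (0.74), AT5G60530 (0.49), AT5G16230 (0.85), AT4G16155 (0.74), BAN (1.54), GAPC2 (0.55), CYP71B34 (0.66), UGT85A7 (1.54), GSTU27 (1.00) and ATMND1 (1.19). Those with a negative one were RCA (-0.80), AT2G25450 (-0.93), UGT74B1 (-0.60), AT5G37670 (-1.10), ADPG1 (-1.26), psbJ (-0.71), CYP78A9 (-2.43), UGT87A2 (-1.97) and AT2G41640 (-0.68). Against 10-11 d the interaction was positive for AT4G16155 (0.79), BAN (0.91), GAPC2 (0.48) and GSTU27 (0.82). It was negative for UGT74B1 (-0.63), AT5G37670 (-0.88), petA (-0.99), UGT87A2 (-0.73), ATGSTF13 (-0.64) and AT2G41640 (-0.56).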

How the results depend on the processing

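Of the 97 named genes called at 12-13 d, 75 kept the call in each alternative in which they were tested and 22 lost it in at least 1, and none changed sign. Fits of the compared stages alone ended 16 of these calls and the reference scaling 14. Without dim probe sets, 73 of the 97 were tested. The 24 genes with extreme differences had adjusted p-values of 0.000851 or lower wherever they were tested, which without dim probe sets was 17 of the 24. Scaling to the reference genes gave 550 upward and 1878 downward interaction calls against 8-9 d and 361 and 1175 against 10-11 d. Centring on array medians turned the majority against 8-9 d (1121 upward, 1013 downward), and leaving out dim probe sets turned that against 10-11 d (664 and 638). The reference scaling left 83 probe sets higher and 448 lower whose difference was larger than at both earlier stages. Without dim probe sets, 126 were at least 2-fold higher and 209 lower, fewer probe sets being tested. Leaving out 1 array at a time gave 754 to 1493 interaction calls against 10-11 d, 299 to 716 upward and 455 to 777 downward, and 93 to 174 probe sets higher with a difference larger than at both earlier stages. The lowest of these values came without Col-0 10-11 d replicate 2 and the highest without Col-0 12-13 d replicate 1. Calls at 12-13 d numbered 3997 to 4922. No sign was seen that replicate numbers of the titles pair the samples. The deviations of same-numbered pools of the accessions at 12-13 d correlated with -0.05, -0.03 and 0.06. Those of differently numbered pools correlated with -0.10 to 0.13. A check on 3 pools per group cannot decide whether the samples were paired. With the replicate number as a block, 5095 probe sets were called, 2824 higher and 2271 lower, and the interactions gave 2052 and 1400 calls. Of the probe sets with the lowest signals 5.84% were called, of those with the highest 33%, and of the 100 highest 25%. The cause of the other changes was not tested.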

Other observations

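Of the probe sets at least 2-fold higher in C24, 58 had a C24 mean above and a Col-0 mean below the array median, 106 had both means above and 26 both below. Of those at least 2-fold lower, 111 had the Col-0 mean above and the C24 mean below it, 173 had both above and 42 both below. Probe sets whose probes may match several transcripts, as their design name marks them, were 4.66% of all probe sets, 8.95% of those at least 2-fold higher (17) and 9.51% of those at least 2-fold lower (31). None of the 101 named genes was measured by such a probe set. The probe sets at least 2-fold higher at 12-13 d had a median difference of 0.65 at 8-9 d, 1.05 at 10-11 d and 1.30 at 12-13 d, and those at least 2-fold lower -0.55, -1.03 and -1.36.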
